A study of Mus musculus with 18 samples.

Results

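The miR-200 family comprises 5 guide strands made from 2 genomic clusters, and all 5 were found by name among the 1841 mature miRNAs listed. mmu-miR-200b-3p, mmu-miR-200a-3p and mmu-miR-429-3p come from a cluster on mouse chromosome 4, and mmu-miR-200c-3p and mmu-miR-141-3p from a cluster on chromosome 6. The libraries, 18 in all, came from male C57BL/6J mice at 1 month of age and form 6 groups of 3 biological replicates. Hippocampus came from mice that lack the long noncoding RNA Cyrano (CyrKO) and from wild-type mice (WT). Cerebellum came from double mutants (CyrKOCdr1as671), from CyrKO mice, from mice whose circular RNA Cdr1as has an 18-nt deletion where miR-671 binds (Cdr1as671) and from WT mice. Whether the animals were littermates, and how many founders each line has, is not given in the sources used here. Libraries had totals of 8591172 to 15305829 miRNA reads, and levels are counts per 1000000 of these reads (CPM). Cyrano and Cdr1as are not miRNAs, so these tables hold no check of the targeted RNAs. miR-7a-5p, which Cyrano is known to destabilise in mouse, averaged 25224 ± 891 CPM in CyrKO hippocampus and 4314 ± 491 CPM in WT hippocampus (SD, n = 3 each).

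Both clusters are known chiefly from epithelial cells, where their miRNAs repress the transcription factors Zeb1 and Zeb2 and so help to keep cells epithelial. A miRNA finds its targets mainly through its seed, bases 2 to 8 counted from the 5′ end. In the nervous system the family is known from the olfactory epithelium, where it acts as sensory neurons form.

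The guide sequences are shown because each seed is made by both clusters, so seed and cluster can be told apart in these data. Mature sequences are from RefSeq on GRCm38.p6, written 5′ to 3′ with the seed in capitals, the chromosome 4 cluster before the chromosome 6 cluster.
mmu-miR-200b-3p: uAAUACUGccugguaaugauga
mmu-miR-200a-3p: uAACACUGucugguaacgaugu
mmu-miR-429-3p: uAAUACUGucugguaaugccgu
mmu-miR-200c-3p: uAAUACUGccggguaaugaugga
mmu-miR-141-3p: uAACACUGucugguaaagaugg
The seed AAUACUG is shared by miR-200b-3p, miR-429-3p and miR-200c-3p, and AACACUG by miR-200a-3p and miR-141-3p, with no other listed miRNA carrying either. Counted from 1 at the 5′ end, the seeds differ by U4C. Over 22 bases miR-200b-3p and miR-200c-3p differ at 2 positions (U11G and A22G), as do miR-200a-3p and miR-141-3p (C17A and U22G). How the authors assigned reads between such near-identical miRNAs was not stated in what was read here. miR-200c-3p counts were 1.96% to 6.74% of miR-200b-3p counts in the 6 hippocampus libraries, and 50.0% to 446% of them in the 12 cerebellum libraries.

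The hairpins lie close together within each cluster. On GRCm38.p6 the first cluster spans chr4:156053905-156055750 on the minus strand, with Mir200b at chr4:156055681-156055750, Mir200a at chr4:156054896-156054985 and Mir429 at chr4:156053905-156053987. All 3 hairpins lie within the noncoding transcript Gm13648 and an intron of Ttll10, which run on the same strand, and Mir429 overlaps an exon of Gm13648. The second cluster spans chr6:124717914-124718390, also on the minus strand, with Mir200c at chr6:124718322-124718390 and Mir141 at chr6:124717914-124717985. Both of its hairpins lie within the noncoding gene Gm15884, between the coding genes Phb2 and Ptpn6. Mir141 also overlaps an exon of the annotated gene Gm29008, on the same strand.

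The clusters parted between the tissues. In hippocampus the chromosome 4 miRNAs were far higher than in cerebellum. There miR-200c-3p was lower than in WT and CyrKO cerebellum, but on average not lower than in cerebellum with the Cdr1as mutation. It averaged 1.56 and 1.58 CPM in WT and CyrKO hippocampus, against 1.31 and 1.42 CPM in Cdr1as671 and double-mutant cerebellum. Summed over its 3 guides, the chromosome 4 cluster averaged 166 ± 33.3 CPM in WT hippocampus and 4.05 ± 0.19 CPM in WT cerebellum (SD, n = 3 each). Scaled by library totals alone, it was 41.1 times as high. In CyrKO hippocampus it averaged 152 ± 95.4 CPM, against 4.16 ± 0.91 CPM in CyrKO cerebellum, 36.6 times as much. The chromosome 6 cluster averaged 3.56 ± 0.42 CPM in WT hippocampus and 6.07 ± 2.93 CPM in WT cerebellum, and 3.54 ± 1.26 CPM in CyrKO hippocampus and 6.91 ± 1.35 CPM in CyrKO cerebellum. The chromosome 4 cluster thus made 97.9% ± 0.50 of the family's reads in WT hippocampus and 42.4% ± 13.5 in WT cerebellum. In bulk tissue, fewer cells that hold a miRNA and less of it per cell cannot be told apart.

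**Figure D1:**
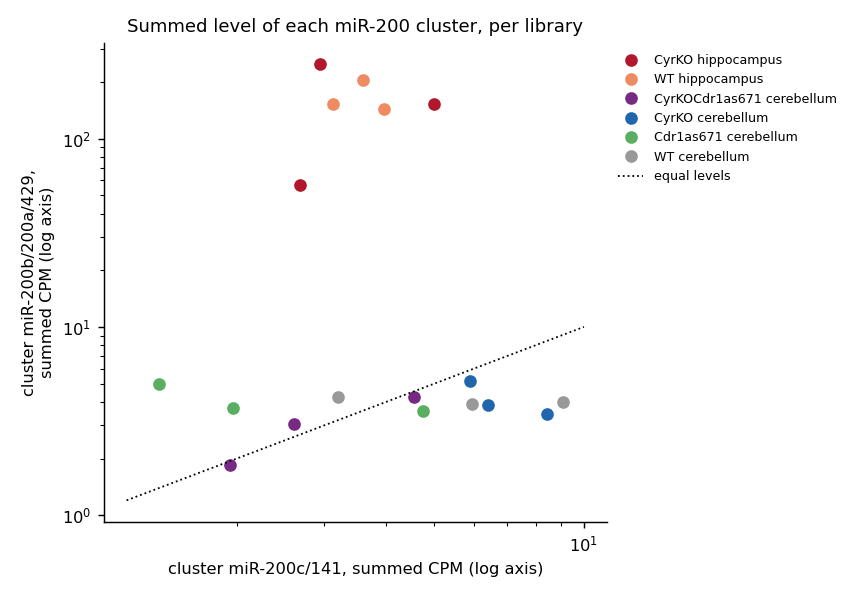
Summed CPM of the chromosome 4 cluster (y, log axis) against that of the chromosome 6 cluster (x, log axis), 1 point per library, coloured by group, with a dotted line at equal levels. All 6 hippocampus libraries lie at 56.6 CPM or more on the y axis, and all 12 cerebellum libraries at 5.18 CPM or less.

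By member, miR-200a-3p was the most abundant of the family in hippocampus. mmu-miR-200a-3p had 66.5, 94.1 and 65.8 CPM in WT hippocampus, against 1.42, 1.97 and 1.49 CPM in WT cerebellum. The groups did not overlap, and the lowest hippocampus library stood far above every cerebellum library. How many of all miRNAs did not overlap between the tissues was not counted, so separation alone sets no guide apart here or below. In CyrKO it had 69.6, 119 and 27.3 CPM in hippocampus, against 0.884, 1.63 and 2.68 CPM in cerebellum. The third CyrKO hippocampus library was the lowest of its tissue and still well above the cerebellum. miR-200a-3p carries the seed of miR-141-3p, which did not share its pattern.

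mmu-miR-200b-3p, which has the other seed, had 41.4, 59.4 and 50.9 CPM in WT hippocampus, against 1.42, 1.06 and 1.69 CPM in WT cerebellum. It had 43.6, 75.1 and 15.4 CPM in CyrKO hippocampus, against 1.28, 1.37 and 1.61 CPM in CyrKO cerebellum. The groups did not overlap in either genotype. mmu-miR-429-3p, the third product of the cluster, had 35.2, 51.1 and 35.0 CPM in WT hippocampus, against 1.07, 1.23 and 0.796 CPM in WT cerebellum. It had 38.7, 53.5 and 13.9 CPM in CyrKO hippocampus, against 1.28, 0.849 and 0.893 CPM in CyrKO cerebellum. Again no hippocampus library came near a cerebellum library, and the third CyrKO library was the lowest of its tissue.

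miR-200c-3p, which shares the seed of miR-200b-3p and miR-429-3p, ran the other way. mmu-miR-200c-3p had 1.63, 1.54 and 1.51 CPM in WT hippocampus, against 3.28, 2.13 and 4.88 CPM in WT cerebellum. It had 2.23, 1.47 and 1.04 CPM in CyrKO hippocampus, against 5.69, 2.87 and 3.04 CPM in CyrKO cerebellum. Every hippocampus library was below every cerebellum library of its genotype. mmu-miR-141-3p, its cluster partner, had 2.33, 2.05 and 1.62 CPM in WT hippocampus, against 2.66, 1.06 and 4.18 CPM in WT cerebellum. It had 2.76, 1.47 and 1.65 CPM in CyrKO hippocampus, against 2.75, 3.53 and 2.86 CPM in CyrKO cerebellum. Its groups overlapped in both genotypes, in CyrKO through the first hippocampus library alone.

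**Figure D2:**
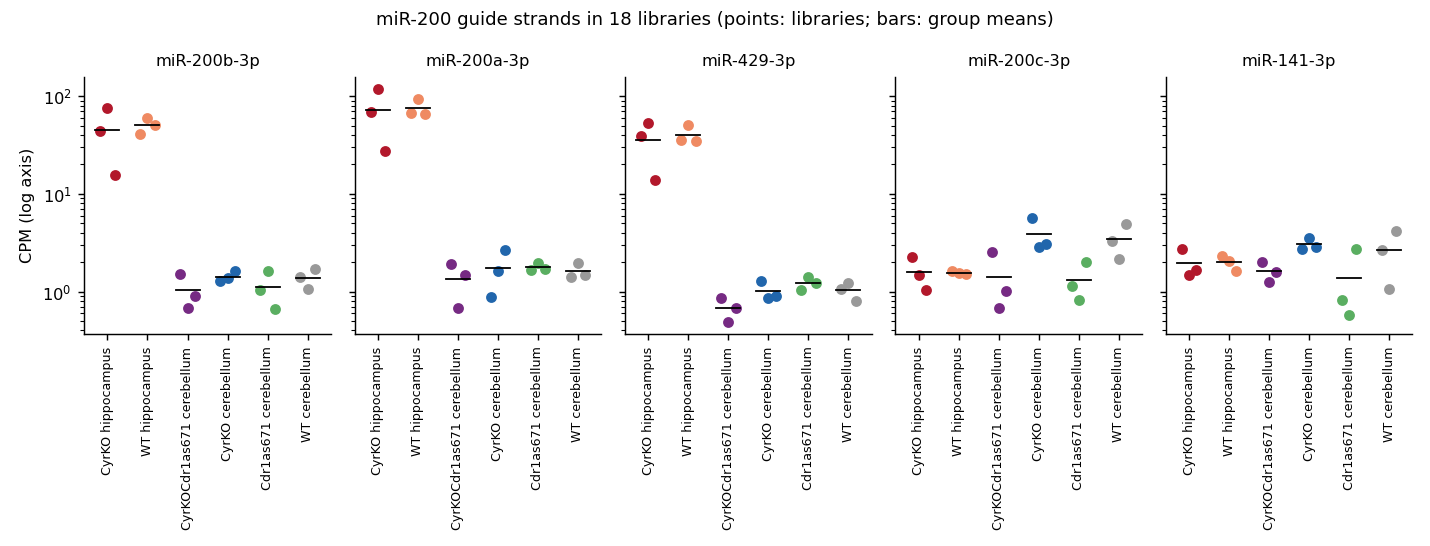
CPM of each guide (y, log axis) in the 6 groups (x), with 1 point per library and a bar at the group mean. miR-200b-3p, miR-200a-3p and miR-429-3p separate the 6 hippocampus libraries from the 12 cerebellum libraries, while miR-200c-3p and miR-141-3p stay between 0.581 and 5.69 CPM in all 18.

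In edgeR's quasi-likelihood test with Benjamini-Hochberg adjustment all 5 guides passed between the WT tissues, where 70.0% of the 746 miRNAs tested passed (37.5% as higher in hippocampus and 32.4% as lower). The log2 change was 4.96 for miR-200a-3p (SE 0.60, adjusted p = 6.15e-05), 4.71 for miR-429-3p (SE 0.53, adjusted p = 2.52e-05) and 4.64 for miR-200b-3p (SE 0.58, adjusted p = 7.03e-05). Ordered by size of the rise among the 746 miRNAs, these stood at ranks 6, 8 and 9. miR-200c-3p was lower by a log2 change of −1.66 (SE 0.36, adjusted p = 0.000752), and miR-141-3p by −0.91 (SE 0.38, adjusted p = 0.0424). A call is common in this comparison, so it is the size and the opposite sign of the changes that set the guides apart from each other.

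Without Cyrano the tissues differed in the same directions, with all 5 guides past edgeR's threshold and 72.1% of all miRNAs past it (38.9% as higher and 33.2% as lower). The log2 change of CyrKO hippocampus over CyrKO cerebellum was 4.78 for miR-200a-3p (SE 0.59, adjusted p = 7.42e-05), 4.56 for miR-429-3p (SE 0.52, adjusted p = 3.18e-05) and 4.38 for miR-200b-3p (SE 0.57, adjusted p = 9.70e-05). It was −1.81 for miR-200c-3p (SE 0.34, adjusted p = 0.000197) and −1.19 for miR-141-3p (SE 0.35, adjusted p = 0.00691). By size of the rise in CyrKO, miR-200a-3p, miR-429-3p and miR-200b-3p stood at ranks 9, 14 and 15 among the 746 miRNAs. The median log2 change of all miRNAs was 0.03 in WT and 0.10 in CyrKO.

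The call on miR-141-3p depended on the scaling. With library totals alone in place of TMM, the median of all miRNAs shifted to 0.58 in WT and 0.68 in CyrKO, with 402 higher and 126 lower calls in WT and 419 higher and 126 lower in CyrKO. miR-141-3p then had −0.37 in WT (edgeR adjusted p = 0.429) and −0.61 in CyrKO (edgeR adjusted p = 0.146), while miR-200c-3p and the 3 chromosome 4 guides kept their calls. In WT the call on miR-141-3p also ended in 11 of the 12 edgeR fits that left out 1 library, with log2 changes from −1.03 to −0.45 and adjusted p from 0.0548 to 0.311. It was kept only without WT cerebellum library 2, at −1.25 (adjusted p = 0.00225). The folds of the chromosome 4 guides depended on the scaling too. In WT they were 24.9 to 31.2 with TMM, against 36.3 to 46.4 as ratios of mean CPM.

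**Figure D3:**
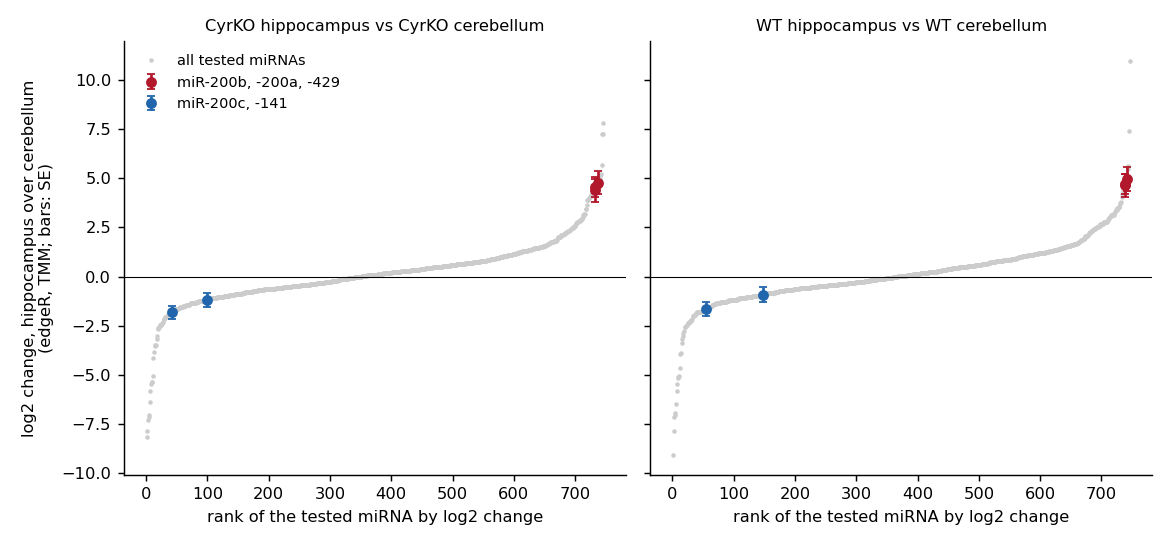
Log2 change of hippocampus over cerebellum (y) for the 746 tested miRNAs ordered by that change (x), in CyrKO and in WT, with the guides coloured by cluster and bars of 1 SE. The chromosome 4 guides sit near the top, at 4.38 to 4.96, and the chromosome 6 guides below 0, at −1.81 to −0.91.

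The ratio of the clusters within a library does not depend on how libraries are scaled. The log2 ratio of the chromosome 4 to the chromosome 6 cluster was 5.16, 5.81 and 5.58 in WT hippocampus, against −0.60, 0.41 and −1.18 in WT cerebellum. In CyrKO it was 4.92, 6.36 and 4.38 in hippocampus, against −1.28, −0.73 and −0.18 in cerebellum. All 6 hippocampus libraries lay above all 6 of these cerebellum libraries, with means of 5.37 ± 0.70 and −0.59 ± 0.63 (SD, n = 6 each).

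The members of the chromosome 4 cluster kept nearly the same proportions from one hippocampus library to the next. miR-200a-3p made 45.3% ± 1.67 of the cluster's reads in WT hippocampus and 40.0% ± 5.35 in WT cerebellum, where the cluster had only 40 to 52 reads per library. miR-200b-3p made 30.5% ± 2.62 in WT hippocampus and 34.6% ± 8.88 in WT cerebellum, and miR-429-3p made 24.2% ± 0.99 and 25.4% ± 4.72. In CyrKO hippocampus, where the cluster's level spread from 56.6 to 247 CPM, the shares were 47.3% ± 1.34, 28.8% ± 1.56 and 23.9% ± 2.02 in the same order. Over the 6 hippocampus libraries the log2 levels of its members correlated at r = 0.981 to 0.989, and those of miR-200c-3p and miR-141-3p at r = 0.776. Over the 12 cerebellum libraries, where each member had 5 to 30 reads, the chromosome 4 members correlated at r = 0.23 to 0.46, and miR-200c-3p and miR-141-3p at r = 0.804. Pairs across the clusters ran from r = −0.17 to 0.519 in cerebellum, highest for miR-200b-3p with miR-200c-3p and above every pair within the chromosome 4 cluster. In hippocampus the pairs across the clusters had r = 0.515 to 0.597 with miR-200c-3p and r = 0.0025 to 0.16 with miR-141-3p.

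The opposite strands of the hairpins were nearly absent. miR-200b-5p had 6, 6 and 2 reads in CyrKO hippocampus, 4, 4 and 3 reads in WT hippocampus and at most 1 read in any cerebellum library. miR-200a-5p had 7, 4 and 2 reads in CyrKO hippocampus, 2, 4 and 1 in WT hippocampus and at most 1 in any cerebellum library. miR-141-5p had at most 1 read in any library, and miR-429-5p and miR-200c-5p had 0 in all 18. The few reads from these strands of the chromosome 4 hairpins were thus found mostly in hippocampus, as were those of the guides.

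Markers of other cell types also differed between the tissues, and their part in the family's difference was not tested. Of all 746 tested miRNAs, edgeR called 37.5% higher and 32.4% lower in WT hippocampus, and 38.9% higher and 33.2% lower in CyrKO hippocampus. Of 7 miRNAs of multiciliated and ependymal cells, 6 were tested, 4 were higher in WT hippocampus than in WT cerebellum and 1 was lower, with a median log2 change of 1.60. Their summed level was 2040, 4317 and 837 CPM in WT hippocampus and 402 to 816 CPM in WT cerebellum, and 1923, 4329 and 3267 CPM in CyrKO hippocampus and 349 to 538 CPM in CyrKO cerebellum. miR-449a-3p of this list was at 0 in all WT libraries.

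The 3 choroid plexus miRNAs, led by miR-204-5p, had 0 of 3 called between the WT tissues by edgeR (0 at an unadjusted p under 0.05) and a median log2 change of −0.97. They summed to 5386, 11854 and 2865 CPM in WT hippocampus and 8320 to 9456 CPM in WT cerebellum. In CyrKO they summed to 4016, 12824 and 9447 CPM in hippocampus and 8295 to 10125 CPM in cerebellum, with 1 of 3 higher and a median of −0.28. The chromosome 4 cluster had 3.44 to 5.18 CPM in these cerebellum libraries. The sensory and pineal miR-183, miR-96 and miR-182, all 3 lower in hippocampus with a median of −5.03 in WT, summed to 5.23 to 5.72 CPM in WT hippocampus and 122 to 167 CPM in WT cerebellum.

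Other epithelial miRNAs did not share a direction. Of 5 tested, miR-31-5p and miR-203-3p were higher in WT hippocampus than in WT cerebellum, at 1.60 (SE 0.11) and 0.36 (SE 0.14), and miR-194-5p and miR-192-5p were lower, at −2.52 (SE 0.09) and −1.95 (SE 0.09). miR-205-5p had −0.36 (SE 0.30) and did not pass. miR-203-3p, known from skin, averaged 33.1 ± 0.64 CPM in WT hippocampus and 17.6 ± 1.22 CPM in WT cerebellum. miR-375-3p of endocrine cells averaged 57.6 ± 22.2 CPM in WT hippocampus and 11.1 ± 4.37 CPM in WT cerebellum, a log2 change of 1.82 (SE 0.41, edgeR adjusted p = 0.00308). The neuronal list had 1 of 4 higher (miR-138-5p, at 1.24) and 2 lower between the WT tissues, where 37.5% of all 746 were higher and 32.4% lower. The vessel list had 0 of 3 in either direction between the WT tissues (0 at an unadjusted edgeR p under 0.05) and 1 of 3 higher in CyrKO hippocampus.

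Loss of Cyrano moved none of the guides past the threshold in either tissue. In hippocampus 0 of 5 guides were called (0 at an unadjusted p under 0.05), where 0.570% of 702 miRNAs were (4 by edgeR and 4 by DESeq2, with 27 at an unadjusted p under 0.05). The log2 changes of CyrKO over WT were −0.21 for miR-200b-3p (SE 0.61), −0.10 for miR-200a-3p (SE 0.58), −0.22 for miR-429-3p (SE 0.54), 0.03 for miR-200c-3p (SE 0.31) and −0.01 for miR-141-3p (SE 0.30). The chromosome 4 cluster had 152, 247 and 56.6 CPM in CyrKO hippocampus, against 143, 205 and 152 CPM in WT hippocampus. The CyrKO libraries spread to both sides of the WT libraries, and a change of the size of these standard errors was not detectable.

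In cerebellum 0 of 5 guides were called in CyrKO against WT (0 at an unadjusted p under 0.05), where 0.898% of 668 miRNAs were (6 by edgeR and 6 by DESeq2, with 16 at an unadjusted p under 0.05). The chromosome 4 cluster had 3.44, 3.85 and 5.18 CPM in CyrKO, against 3.91, 4.26 and 3.98 CPM in WT. The chromosome 6 cluster had 8.44, 6.40 and 5.89 CPM in CyrKO, against 5.95, 3.19 and 9.06 CPM in WT. Both overlapped between the genotypes, and the log2 changes of the guides lay between −0.07 and 0.25 (adjusted p = 0.999 each in edgeR). The CyrKO effect, hippocampus minus cerebellum, was between −0.28 and −0.15 for the 5 guides, with an edgeR adjusted p of 0.968 or more, where 0.402% of 746 miRNAs were called (3 by edgeR and 5 by DESeq2, with 35 at an unadjusted p under 0.05).

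The mutation of the Cdr1as site went with lower values of miR-200c-3p in cerebellum. In edgeR with the low-count filter, all libraries and no replicate block, the difference passed in no single comparison. With no low-count filter it passed in edgeR against WT, in Cdr1as671 (adjusted p = 0.000449) and in the double mutant (adjusted p = 0.0137). With the filter and the replicate number as a block it passed in Cdr1as671 against WT, at −1.42 (edgeR adjusted p = 0.000657). There miR-141-3p passed too, at −1.03 (edgeR adjusted p = 0.0479). miR-200c-3p had 1.14, 0.814 and 1.99 CPM in Cdr1as671, against 3.28, 2.13 and 4.88 CPM in WT. The groups did not overlap, although the highest mutant library came close to the lowest WT library. The log2 change was −1.37 (SE 0.41, unadjusted p = 0.00751, adjusted p = 0.116 in edgeR), and miR-141-3p had −0.89 (SE 0.77, adjusted p = 0.585). The chromosome 4 guides had −0.39, 0.08 and 0.19 for miR-200b-3p, miR-200a-3p and miR-429-3p. In this comparison 0 of 5 guides were called by edgeR (1, miR-200c-3p, at an unadjusted p under 0.05), where 2.26% of 665 miRNAs were (15 by edgeR and 30 by DESeq2, with 137 at an unadjusted p under 0.05). The authors' deposited table gives miR-200c-3p a log2 fold change of −1.38 with p = 0.00436 and no adjusted p. The call on miR-200c-3p was made without WT library 2, at −1.65 (edgeR adjusted p = 0.0331), and without Cdr1as671 library 3, at −1.85 (edgeR adjusted p = 0.0142).

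In the double mutant miR-200c-3p had 2.56, 0.679 and 1.02 CPM, against 3.28, 2.13 and 4.88 CPM in WT and 5.69, 2.87 and 3.04 CPM in CyrKO. The first double-mutant library overlapped the WT libraries, while all 3 were below the CyrKO libraries. The log2 change was −1.16 against WT (SE 0.49, adjusted p = 0.256 in edgeR) and −1.35 against CyrKO (SE 0.50, adjusted p = 0.169 in edgeR), the last being −2.06 without double-mutant library 1 (edgeR adjusted p = 0.045). miR-141-3p, its cluster partner, had 1.99, 1.26 and 1.59 CPM in the double mutant, against 2.66, 1.06 and 4.18 CPM in WT and 2.75, 3.53 and 2.86 CPM in CyrKO. Its log2 change was −0.60 against WT (SE 0.47) and −0.87 against CyrKO (SE 0.54).

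None of the guides passed edgeR's threshold in the double mutant, and miR-200c-3p alone had an unadjusted p under 0.05, against WT (0.0476) and against CyrKO (0.0199). Against WT 4 of 5 were tested, since miR-429-3p fell under the count filter, and 2.57% of 662 miRNAs were called (17 by edgeR, 35 by edgeR with the replicate number as a block and 50 by DESeq2, with 127 at an unadjusted p under 0.05). Against CyrKO 2.33% of 688 were called (16 by edgeR and 35 by DESeq2, with 139 at an unadjusted p under 0.05). Against Cdr1as671 0.727% were called (5 by edgeR and 6 by DESeq2, with 59 at an unadjusted p under 0.05), and miR-429-3p had the largest difference of the family, at −0.74 (SE 0.35, adjusted p = 0.594). It had 0.854, 0.485 and 0.681 CPM in the double mutant, against 1.03, 1.40 and 1.23 CPM in Cdr1as671. The groups did not overlap, at 5 to 13 reads per library. How many of all miRNAs did not overlap in the genotype comparisons was not counted, so separation alone sets no guide apart. For the interaction of both mutations, where 0.145% were called (1 by edgeR and 4 by DESeq2, with 27 at an unadjusted p under 0.05), miR-200c-3p had 0.02 (SE 0.69) and miR-141-3p 0.01 (SE 0.75).

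**Figure D4:**
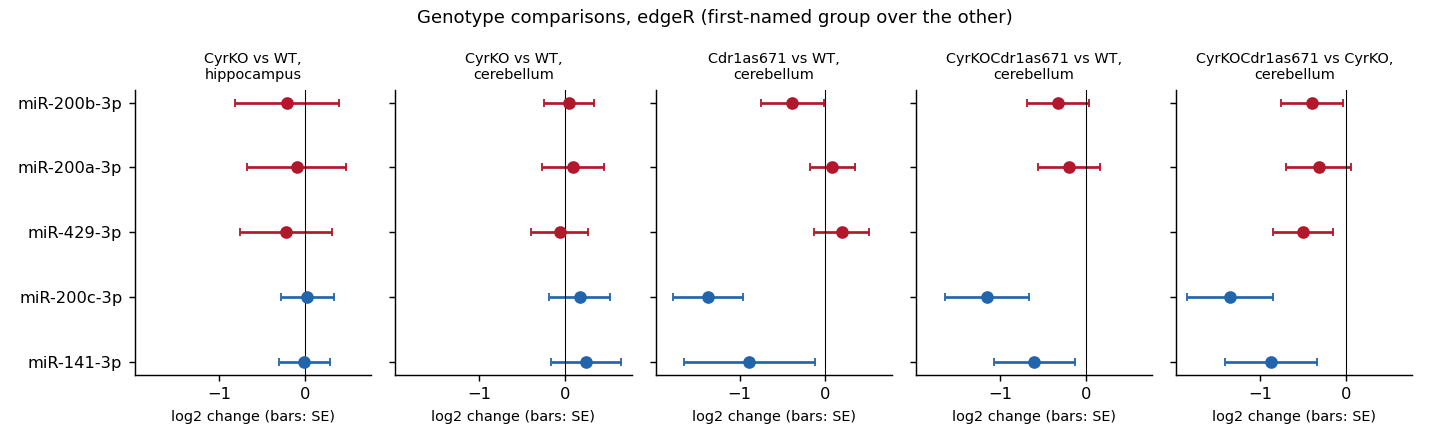
Log2 change (x, bars of 1 SE) of each guide in 5 genotype comparisons, the first-named group over the other. miR-200c-3p lies at −1.37, −1.16 and −1.35 in the 3 comparisons of a group with the Cdr1as mutation against one without it, and the guides lie between −0.22 and 0.25 in the 2 of CyrKO against WT, while miR-429-3p has no point against WT in the double mutant.

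Both groups with the Cdr1as mutation were then set against both groups without it in the fit of 12 cerebellum libraries, a contrast added after the values were seen. miR-200c-3p was lower by a log2 change of −1.36 (SE 0.36, adjusted p = 0.0230 in edgeR), and 1 of 5 guides was called, where 17.3% of 688 miRNAs were (10.2% as lower). miR-141-3p had −0.88 (SE 0.39, adjusted p = 0.147), and the chromosome 4 guides had −0.39 to −0.12. The call on miR-200c-3p ended without WT library 1 or 3, Cdr1as671 library 1 or 2 or double-mutant library 3, with edgeR adjusted p from 0.0523 to 0.0675. miR-141-3p was called without WT library 2, at −1.06 (edgeR adjusted p = 0.0449), or Cdr1as671 library 3, at −1.38 (edgeR adjusted p = 0.00916). DESeq2 gave none of the 5 an adjusted p here. The log2 ratio of the chromosome 4 to the chromosome 6 cluster was 0.40 ± 0.82 with the mutation and −0.59 ± 0.63 without it (SD, n = 6 each), and the groups overlapped.

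miRNAs of red blood cells moved with the chromosome 6 cluster in the same cerebellum libraries. miR-451a, miR-144-3p and miR-144-5p summed to 783, 603 and 16205 CPM in Cdr1as671, against 13913, 6326 and 32949 CPM in WT cerebellum, while the chromosome 6 cluster had 1.96, 1.40 and 4.73 CPM, against 5.95, 3.19 and 9.06 CPM. The libraries lowest in the one were lowest in the other within both groups. The erythroid sum was 16004, 5405 and 10999 CPM in the double mutant, against 25051, 27991 and 16566 CPM in CyrKO cerebellum, with the cluster at 4.55, 1.94 and 2.61 CPM, against 8.44, 6.40 and 5.89 CPM. The erythroid miRNAs themselves had 0 of 3 called in Cdr1as671 against WT by edgeR (median log2 change −1.52) and 0 of 3 in the contrast of all 12 libraries (median −1.24), with 0 at an unadjusted p under 0.05 in both.

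Between the tissues both were lower in hippocampus than in WT and CyrKO cerebellum on average, although single libraries did not keep one order. The erythroid sum was 2583, 3058 and 2665 CPM in WT hippocampus and 3574, 2985 and 2864 CPM in CyrKO hippocampus, against 6326 to 32949 CPM in WT and CyrKO cerebellum, and all 3 miRNAs were lower in hippocampus (median log2 change −3.19 in WT and −3.48 in CyrKO). The WT hippocampus library with the lowest erythroid sum had the highest chromosome 6 cluster of its group, at 3.96 CPM. The double-mutant libraries all had a higher erythroid sum than every hippocampus library, and their cluster averaged 3.03 CPM, against 3.54 CPM in CyrKO hippocampus and 3.56 CPM in WT hippocampus. The part of these miRNAs in the lower miR-200c-3p and miR-141-3p of hippocampus and of the Cdr1as mutants was not tested. Cdr1as671 libraries 1 and 2, the lowest in the erythroid sum, were also the lowest of their group in the chromosome 6 cluster, so that leaving them out had to shrink its difference and bears on no cause. Without them the contrast of all cerebellum libraries gave −1.02 for miR-200c-3p (SE 0.43, adjusted p = 0.174 in edgeR) and −0.35 for miR-141-3p (SE 0.34, adjusted p = 0.544 in edgeR), and 0 of 5 guides were called. Cdr1as671 against WT then gave −0.75 for miR-200c-3p (edgeR adjusted p = 0.665). Both fits leave 1 Cdr1as671 library, assumed to vary like the other groups.

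**Figure D5:**
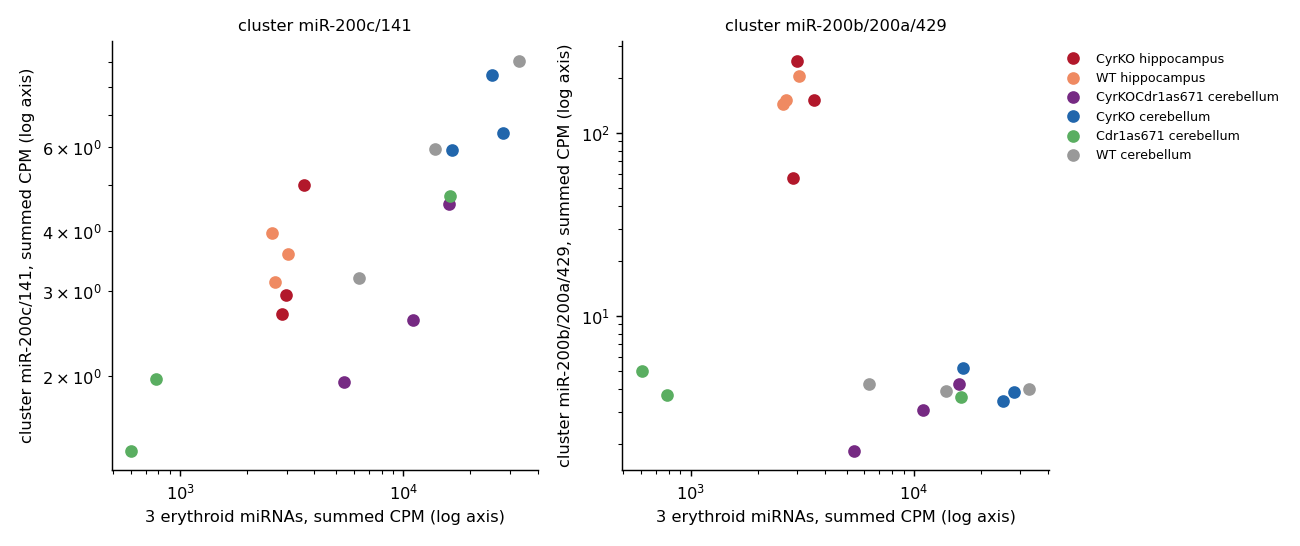
Summed CPM of each cluster (y, log axis) against the summed CPM of the 3 erythroid miRNAs (x, log axis), 1 point per library, coloured by group. The chromosome 6 cluster is lowest, at 1.40 CPM, in the library with the lowest erythroid sum (603 CPM) and highest, at 9.06 CPM, in the library with the highest (32949 CPM), while the chromosome 4 cluster separates only by tissue.

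The miRNAs most like each cluster differed. Among 438 miRNAs with a mean of at least 10 CPM, those with the highest correlation with the chromosome 6 cluster over the 18 libraries were miR-15b-3p (r = 0.864), miR-451a (r = 0.828), miR-144-5p (r = 0.808), miR-16-2-3p (r = 0.804) and miR-142-5p (r = 0.793), of which miR-451a and miR-144-5p are erythroid and miR-142-5p is known from blood cells in general. With group means taken out, the first 5 were miR-15b-3p (r = 0.901), miR-451a (r = 0.861), miR-17-5p (r = 0.848), miR-93-5p (r = 0.835) and miR-142-5p (r = 0.829). By tissue, on the same deviations, miR-451a ranked 3 of the 438 within the 12 cerebellum libraries (r = 0.903) and 53 within the 6 hippocampus libraries (r = 0.76), where miR-144-3p (r = 0.372) and miR-144-5p (r = 0.354) ranked 172 and 184. miR-451a had r = −0.45 with the chromosome 4 cluster over the 18 libraries and r = −0.01 with group means taken out. The chromosome 4 cluster was most like miR-382-5p (r = 0.985), miR-1983 (r = 0.984), miR-139-5p (r = 0.984), miR-541-5p (r = 0.982) and miR-146a-5p (r = 0.982), over libraries that fall into the 2 tissues. With group means taken out its first 5 were miR-145a-3p (r = 0.761), miR-490-3p (r = 0.645), miR-335-3p (r = 0.645), miR-574-5p (r = 0.637) and miR-10b-5p (r = 0.603). These correlations describe libraries that share their depth and tissue, and the chromosome 6 cluster rests on 12 to 98 reads per library.

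In the order of group means, the chromosome 4 cluster stood highest in WT hippocampus and then CyrKO hippocampus, which overlapped, with all 4 cerebellum groups far below and overlapping each other. The chromosome 6 cluster stood highest in CyrKO cerebellum and WT cerebellum, which overlapped, followed by WT hippocampus (3.56 CPM), CyrKO hippocampus (3.54 CPM), CyrKOCdr1as671 cerebellum (3.03 ± 1.36 CPM) and Cdr1as671 cerebellum (2.70 ± 1.79 CPM), neighbours that differed by less than their SD. Among all listed miRNAs miR-200a-3p ranked 289 by level in WT hippocampus and 596 in WT cerebellum, and miR-200c-3p ranked 649 in WT hippocampus and 507 in WT cerebellum.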

How the data were processed

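The authors deposited 4 tables of 1841 mature miRNAs, each setting a mutant group beside the WT libraries of its tissue. The deposited counts are whole reads per miRNA and library. Their normalised columns and mean hold signal values, by their deposited headers, and were not used. The log2 fold changes, their test statistic (a score) and the p-value columns are the authors' own, per the file headers. WT cerebellum counts, identical in 3 tables, entered once. Per the labels' protocols, small RNAs of 18 to 32 nt from 5 ug of Trizol-extracted total RNA were sequenced. The submitters' processing notes name cutadapt and DESeq2 1.10. No label or header read here names the aligner, the miRNA annotation or the counting rule.

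Counts were tested in edgeR 4.0.16 (R 4.3.3) with filterByExpr (minimum count 10, minimum total 15), TMM and the robust quasi-likelihood F-test, adjusted over all tested miRNAs by Benjamini-Hochberg, threshold 0.05. DESeq2 1.42.0 was an alternative. Each mutant group was compared with WT in a fit of 6 libraries. The other contrasts came from fits of 12. Levels are CPM without TMM. SE is the log2 change over the square root of F. The procedure was tested on simulated data. The log2 cluster ratio (pseudocount 0.5) sums members chosen with results known, so it is given with no p-value. Likeness is Pearson's r of log2(CPM + 1).

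The members, marker lists and alternatives were chosen with earlier results of these data known. Named were all 5 guides, their opposite strands, marker miRNAs of at least 10 CPM in 1 group (up to 4 per list) and the 5 miRNAs most like each cluster. miR-7a-5p as a check, miR-205-5p and miR-449a-3p were named after their values were seen. Of the other lists, 2 of 2 tested meningeal miRNAs were lower in WT hippocampus, where 32.4% of all 746 were. miR-199a-3p was not analysed here. Same-numbered libraries deviated together between CyrKO and WT cerebellum (r = 0.127 to 0.534) and between CyrKOCdr1as671 and WT cerebellum (r = 0.463 to 0.659). Between CyrKO and CyrKOCdr1as671 cerebellum they did not (r = −0.152 to 0.318), and between WT cerebellum and CyrKO hippocampus they ran opposite (r = −0.676 to −0.189). The labels give no pairing, so whether the numbers pair libraries is not known, and fits use no block unless stated. Counting error limits the cerebellum values, at 5 to 58 reads per guide and library. It also limits the chromosome 6 guides in hippocampus, at 12 to 30 reads of miR-200c-3p and 13 to 37 of miR-141-3p per library. The p-values measure the spread between the replicates, given as biological per the series' design.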

Additional observations from a re-analysis of the deposited data

How the results depend on the processing

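The rises of the 3 chromosome 4 guides in hippocampus and the lower miR-200c-3p kept their calls in both genotypes under every scaling, filter, tool, block and left-out library tried, and no guide's log2 change reversed with a call. The number of guides called in Cdr1as671 against WT, 0 of 5, was 1 with no low-count filter and 2 with the replicate block, and 0 to 1 with 1 library left out. There the libraries share only a number (same-numbered pairs correlated at −0.57 to 0.553). In the double mutant against WT it was 1 with no low-count filter. Against CyrKO it was 0 to 1 with 1 library left out. For the Cdr1as mutation averaged over Cyrano genotypes, 1 guide was called, 0 with no low-count filter, 0 without Cdr1as671 libraries 1 and 2, and 0 to 2 with 1 library left out. With no low-count filter miR-200c-3p passed in Cdr1as671 (adjusted p = 0.000449) and the double mutant (adjusted p = 0.0137), and missed in the averaged contrast (adjusted p = 0.0758). The tissue difference of the log2 cluster ratio, 5.96, cannot change with the replicate block, which leaves the mean difference as it is. That difference lay between 5.75 and 5.97 with a pseudocount of 5 or with the mean of the members' log2 CPM. With 1 library left out it was 5.68 to 6.18. In the WT tissues miR-141-3p missed with the block (adjusted p = 0.0595) and with no filter (adjusted p = 0.0601). The cause of these changes was not tested.

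Counts over all miRNAs moved more. For Cdr1as671 against WT, 15 became 4 with RLE size factors, 53 with no filter, 30 in DESeq2, 42 with the replicate block, 79 in 1 fit of 18 libraries, 0 without Cdr1as671 libraries 1 and 2, and 0 to 112 with 1 library left out. For the double mutant against WT, 17 became 31 with library totals, 61 with no filter, 50 in DESeq2, 35 with the replicate block and 6 to 58 with 1 library left out. Against CyrKO, 16 became 25, 26 and 35 with totals, no filter and DESeq2, and 2 to 26 with 1 library left out. Against Cdr1as671, 5 became 8 with totals and 5 to 59 with 1 library left out. The interaction's 1 became 4 with no filter or DESeq2, 0 with the block and 0 to 19 with 1 library left out. The averaged contrast's 119 became 52 without Cdr1as671 libraries 1 and 2 and 55 to 161 with 1 library left out. With library totals, calls in the double mutant split into 10 higher and 21 lower against WT (13 and 4 with TMM), 7 and 18 against CyrKO (7 and 9 with TMM) and 5 and 3 against Cdr1as671 (5 and 0 with TMM). In CyrKO and in CyrKOCdr1as671 against WT cerebellum, the block changed no guide's call.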
